A study of Homo sapiens with 12 samples.

Results

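The interferon response and RNA sensor genes are a set of 43 genes named by symbol, of which 39 were measured among the 14232 genes tested in LN229 cells. By role the set holds 10 RNA sensors, 4 transcription factors, 4 IFIT genes, 8 IFI and IFITM genes, 4 genes of the ISG15 system, 9 other antiviral effectors and 4 other interferon-induced regulators. Each measured gene is read from a probe set paired with its symbol alone. STAT2 had no probe set of its own, and IFITM2, USP18 and GBP1 had probe sets shared with other symbols, so these 4 genes have no value.

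Cells detect foreign or misplaced double-stranded RNA with cytosolic helicases (RIGI, and IFIH1, also called MDA5), with the endosomal receptor TLR3, and with enzymes that double-stranded RNA activates directly (EIF2AK2, also called PKR, and the OAS family). The sensors switch on interferon genes, and secreted interferon acts through its receptors, the JAK kinases and a transcription factor complex that holds IRF9 to raise a large group of interferon-stimulated genes. That complex binds a DNA element in their promoters, the interferon-stimulated response element. Many of these genes keep a low level of expression in tumour cells without any virus.

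LN229 is an established human glioblastoma line. RNA was measured on 12 arrays in 4 groups of 3: 20% oxygen (normoxia) with non-targeting control siRNA, and 1% oxygen (hypoxia) with control siRNA, with siRNA against HIF1A, or with siRNA against HIF2A (gene symbol EPAS1). Cells in every group were transfected with siRNA, a short double-stranded RNA, 24 h after seeding, moved to their oxygen level 48 h later and harvested after 16 h. No untransfected cells, and no siRNA against either HIF in normoxia, are among the groups. The study asked which hypoxic changes depend on HIF-1A and which on HIF-2A. The labels number the replicates without naming separate cultures. The p-values therefore measure only how far these samples lie apart, and that spread may be technical.

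Hypoxia lowered a part of the set: 11 of the 39 genes fell and 0 rose, among them the sensors IFIH1, TLR3 and OAS1, the transcription factor IRF1, and PLSCR1 and TLR3 by over 2-fold. HIF1A siRNA in hypoxia lowered 8 genes and raised 0, among them IFIT2, IFIT3 and IFIT5, SAMD9 and SAMD9L, and OAS3. Of these 8 calls, 4 were lost without replicate 3 of HIF1A siRNA, IFIT2 and SAMD9L among them. All 8 were lost when only these 2 groups were fitted. With HIF2A siRNA 0 of the 39 were called. A gene is called here when its limma p-value, adjusted by Benjamini and Hochberg over all 14232 genes, is below 0.05. Of all genes tested, 10.9% were called lower and 3.72% higher in hypoxia, 13.7% lower and 1.52% higher with HIF1A siRNA, and 0.00703% (1 gene, EPAS1 itself) lower with HIF2A siRNA. Levels and differences below are on the log2 scale, where a difference of -1 is a 2-fold fall, each with its standard error (SE) from limma and n = 3 arrays per group. These are values of whole cultures, in which fewer cells carrying a transcript and less of it per cell cannot be told apart.

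The siRNA targets were lower in the groups that carry their names. HIF1A was at 11.72, 11.40 and 11.26 on the hypoxic control arrays and at 8.2, 9.06 and 7.74 under its own siRNA (log2 difference -3.13, SE 0.26, adjusted p = 2.7e-05). EPAS1 averaged 9.71 in hypoxia with control siRNA and 7.12 with HIF2A siRNA (-2.59, SE 0.14, adjusted p = 3.57e-06), and with HIF1A siRNA it averaged 8.23 (-1.48, adjusted p = 7.59e-05). One array stood apart: replicate 3 of HIF1A siRNA had an upper quartile of 7.88 over all probe sets, against 8.2 to 8.57 on the other 11 arrays, and a median over the 39 genes of 5.99, against 6.54 to 7.09. Results that rest on it are given with and without it. The other scales also matter for direction, since quantile normalization between arrays moved the median difference of all genes with HIF1A siRNA from -0.05 to 0.07, and in hypoxia from -0.03 to 0.03. Markers of microglia and other leukocytes (9 of 10 measured) had a mean level between 4.78 and 5.11 on every array, with 0 calls in the comparisons with hypoxic controls. They ranged from PTPRC, the pan-leukocyte phosphatase, at 2.29 to 2.57, up to CD68 at 8.23 to 8.85. Of 9 measured glioma and astrocyte markers, vimentin (VIM, 11.81 to 12.50) and nestin (NES, 9.76 to 10.32) were high, GFAP was at 6.11 to 6.64, and the astrocyte water channel AQP4 (3.05 to 3.35) lay under the arrays' lower quartiles (4.73 to 4.79). Of these 9, S100B (-0.63) and NES (-0.41) fell in hypoxia, where 10.9% of all genes were called lower. With HIF1A siRNA S100B rose (0.85) and VIM (-0.41) and CD44 (-0.44) fell against control siRNA, where 1.52% and 13.7% of all genes were called higher and lower. Without HIF1A siRNA replicate 3 that comparison called 1 of the 9 higher and 0 lower. The part of these markers in the results was not tested. With HIF1A siRNA against normoxia 3 of the 9 leukocyte markers rose, TYROBP (0.36), CD68 (0.41) and TMEM119 (0.38), where 5.77% of all genes were called higher. Without HIF1A siRNA replicate 3, 2 of the 9 were called higher, and 3.22% of all genes. The part of these markers was not tested either.

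**Figure D1:**
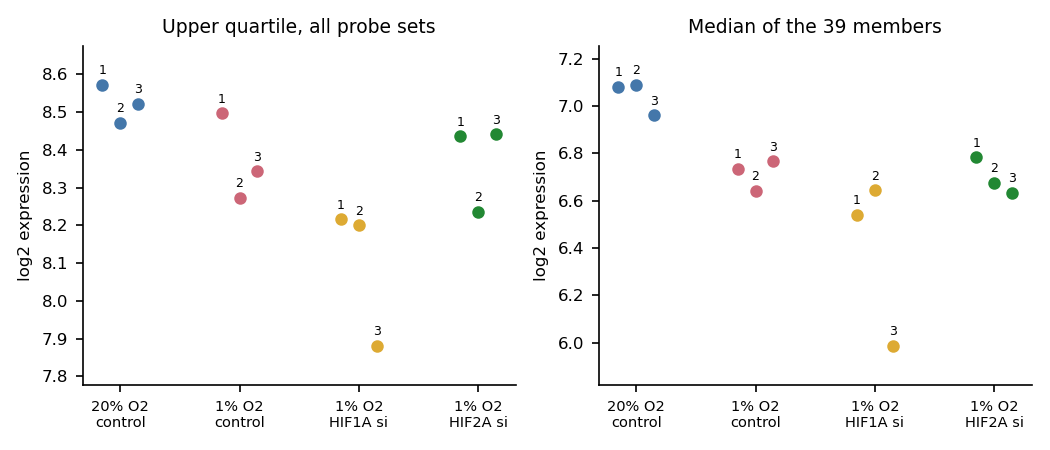
Upper quartile of all probe sets (left) and median of the 39 measured genes (right) on each array, in log2 expression, with replicate numbers beside the points and the 4 groups along the axis. Replicate 3 of HIF1A siRNA is lowest in both panels, at 7.88 and 5.99, and the 3 normoxic arrays have the highest medians over the 39 genes.

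The promoters show what most of these genes share. In RefSeq (GRCh38.p14), 32 of the 39 measured genes have a promoter window, and 21 of them (65.6%) hold the core of the interferon-stimulated response element, searched as GAAA, any 2 bases and GAAA, on either strand in the 250 bases before a gene start. Of all 27305 genes of that table, 3.71% hold it. The core of the hypoxia response element, ACGTG, is in 6 of the 32 (18.8%) and in 21.7% of all genes. Promoter windows are shown, for genes whose values are given below. Each is the 160 bases just before the gene start, 5′ to 3′ on the gene's strand, with matches to that core, or to its reverse complement (TTTC, any 2 bases and TTTC), in capitals. IFIT3 (probe set 3257204; chr10:89327837-89327996, plus strand) and IFIT5 (probe set 3257268; chr10:89414408-89414567, plus strand) have 2 matches each. SAMD9 (probe set 3061438; chr7:93117980-93118139, minus strand) and PLSCR1 (probe set 2699726; chr3:146544608-146544767, minus strand) have 1 each. IFIH1 (probe set 2584207; chr2:162318685-162318844, minus strand) has 3, and TLR3 (probe set 2754937; chr4:186068996-186069155, plus strand) has 0.
IFIT3: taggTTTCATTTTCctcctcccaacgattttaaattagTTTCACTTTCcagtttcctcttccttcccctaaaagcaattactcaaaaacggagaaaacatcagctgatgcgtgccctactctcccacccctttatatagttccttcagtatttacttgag
IFIT5: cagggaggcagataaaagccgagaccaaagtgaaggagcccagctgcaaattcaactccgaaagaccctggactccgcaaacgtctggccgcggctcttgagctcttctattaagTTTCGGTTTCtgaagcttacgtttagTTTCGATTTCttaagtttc
SAMD9: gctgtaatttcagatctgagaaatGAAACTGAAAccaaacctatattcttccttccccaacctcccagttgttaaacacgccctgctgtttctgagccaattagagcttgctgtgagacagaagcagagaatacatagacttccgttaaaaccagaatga
PLSCR1: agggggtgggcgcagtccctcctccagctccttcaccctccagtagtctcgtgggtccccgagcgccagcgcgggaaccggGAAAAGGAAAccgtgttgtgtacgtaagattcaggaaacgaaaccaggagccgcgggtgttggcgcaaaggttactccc
IFIH1: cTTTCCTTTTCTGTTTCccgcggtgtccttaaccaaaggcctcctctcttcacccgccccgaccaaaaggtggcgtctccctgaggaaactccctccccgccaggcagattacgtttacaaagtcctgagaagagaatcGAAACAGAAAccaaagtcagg
TLR3: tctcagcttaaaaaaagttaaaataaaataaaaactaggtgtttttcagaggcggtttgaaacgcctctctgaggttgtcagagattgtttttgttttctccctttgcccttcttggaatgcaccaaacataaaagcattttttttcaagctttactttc

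In IFIT3 the matches begin 156 and 122 bases before the start, and in IFIT5 45 and 19 bases before it. In IFIH1 a pair of overlapping matches begins 159 and 153 bases before the start and the third 21 bases before it. The element was in 7 of the 11 genes lower in hypoxia (63.6%) and in 4 of the 6 genes lower with HIF1A siRNA that have a window (66.7%). ACGTG was in 1 gene of each set. A match is a run of letters and does not show that a factor binds there.

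**Figure D2:**
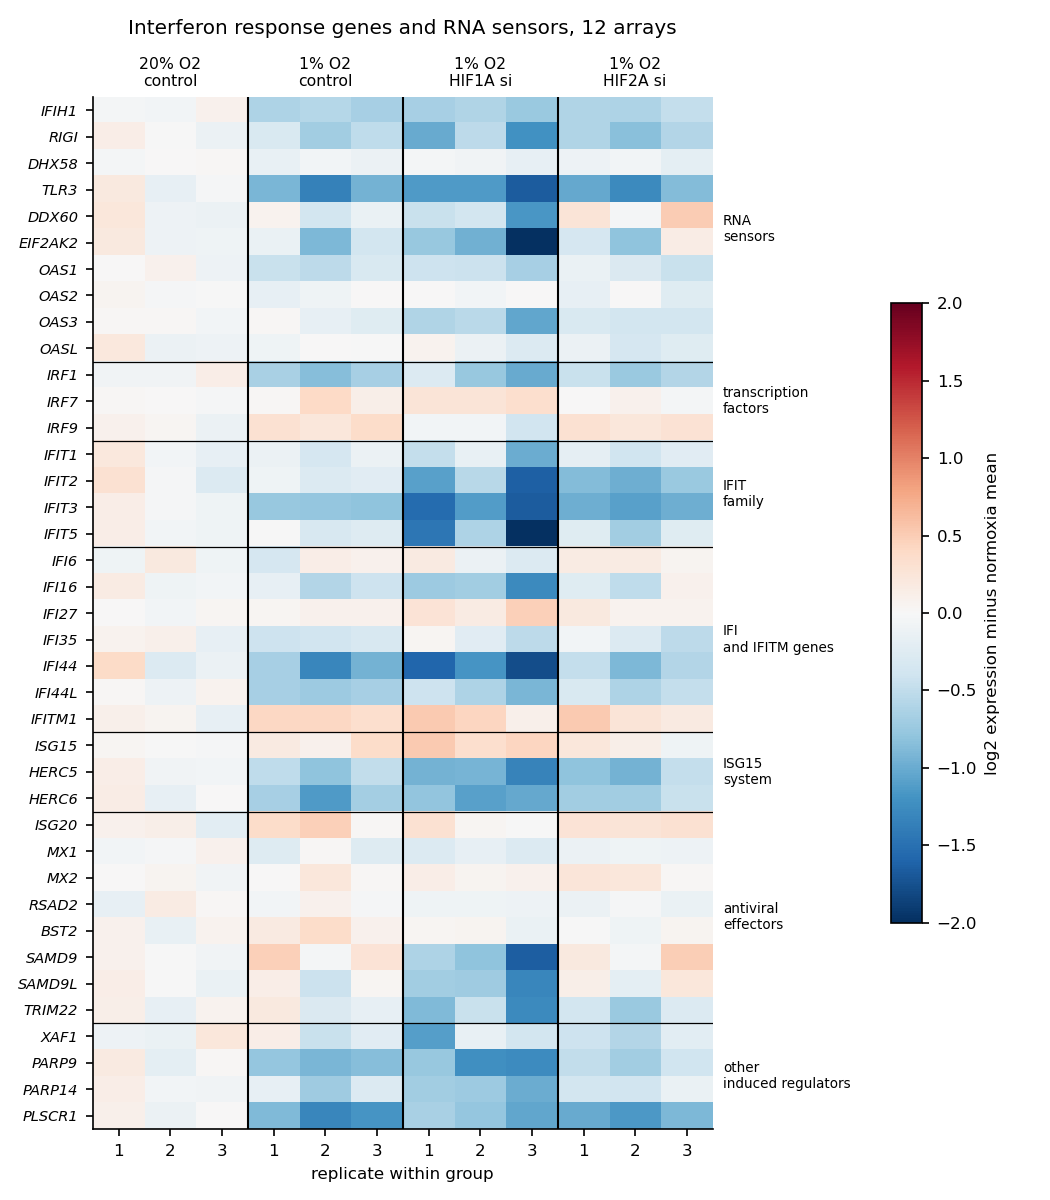
Log2 expression of each of the 39 genes on each of the 12 arrays minus the gene's mean over the 3 normoxic arrays, on a colour scale from -2.0 to 2.0, with genes in rows by role and arrays in columns by group. The rows of TLR3, IFIT3, HERC6, PARP9 and PLSCR1 are blue on all 9 hypoxic arrays. Those of SAMD9 and SAMD9L are darkest on the HIF1A siRNA arrays and that of IFIT5 on replicates 1 and 3 of HIF1A siRNA, for all of them most on replicate 3.

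Among the 10 RNA sensors, 3 fell in hypoxia and 0 rose, with a median log2 difference of -0.28 (all genes, -0.03). Of all genes, 10.9% were called lower in hypoxia. TLR3, the endosomal receptor for double-stranded RNA, measured 7.02, 6.65 and 6.79 in normoxia, 5.91, 5.47 and 5.87 in hypoxia with control siRNA, 5.69, 5.68 and 5.16 with HIF1A siRNA, and 5.79, 5.54 and 5.96 with HIF2A siRNA. All 9 hypoxic arrays lay below all normoxic ones, and the 3 hypoxic groups overlapped. The fall with control siRNA was 2.10-fold (log2 difference -1.07, SE 0.17, adjusted p = 0.00161), and its differences from that level with siRNA did not pass the test (-0.24 with HIF1A siRNA, 95% interval -0.62 to 0.13, and 0.01 with HIF2A siRNA, -0.36 to 0.39). IFIH1, the cytosolic sensor of long double-stranded RNA, measured 5.09, 5.07 and 5.22 in normoxia, 4.52, 4.56 and 4.46 in hypoxia with control siRNA, 4.46, 4.53 and 4.38 with HIF1A siRNA, and 4.53, 4.52 and 4.66 with HIF2A siRNA. Its hypoxic and normoxic arrays were likewise separate (-0.61, SE 0.09, adjusted p = 0.00093). The hypoxic levels of IFIH1 were below the lower quartile of all probe sets on every array. No measure of background comes with these values, so the size of its fall is uncertain.

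OAS1, which makes the oligoadenylates that activate RNase L, measured 7.08, 7.15 and 6.97 in normoxia, 6.63, 6.54 and 6.77 in hypoxia with control siRNA, 6.66, 6.64 and 6.40 with HIF1A siRNA, and 6.94, 6.78 and 6.63 with HIF2A siRNA. Its fall in hypoxia was 1.34-fold (-0.42, SE 0.11, adjusted p = 0.0263), and the call was lost without normoxia replicate 1 or 2 or hypoxia control replicate 1 or 2 (highest adjusted p = 0.111). OAS3, a larger enzyme of the same family, measured 8.13, 8.13 and 8.06 in normoxia, 8.14, 7.94 and 7.87 in hypoxia with control siRNA, 7.51, 7.57 and 7.07 with HIF1A siRNA, and 7.80, 7.75 and 7.74 with HIF2A siRNA. Normoxia and hypoxia overlapped (-0.12, SE 0.13, adjusted p = 0.632), and all 3 HIF1A siRNA arrays lay below all others. OAS3 fell 1.52-fold with HIF1A siRNA (-0.60, SE 0.13, adjusted p = 0.0104), and by 0.44 without its replicate 3 (adjusted p = 0.0252), a call lost without hypoxia control replicate 1.

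DDX60, an interferon-induced helicase, was at 5.93, 5.49 and 5.72 on the hypoxic control arrays, 5.42, 5.49 and 4.69 with HIF1A siRNA, and 6.12, 5.82 and 6.36 with HIF2A siRNA, against 6.08, 5.76 and 5.74 in normoxia. The 3 arrays with HIF1A siRNA lay below the 3 with HIF2A siRNA (-0.90, SE 0.21, adjusted p = 0.017; -0.65, adjusted p = 0.0508 without HIF1A siRNA replicate 3). The differences from control siRNA were -0.51 (-0.26 without HIF1A siRNA replicate 3) and 0.39, neither called. EIF2AK2, the kinase that stops translation on double-stranded RNA, measured 7.39, 7.18 and 5.93 with HIF1A siRNA, and its difference from control siRNA (-0.84, SE 0.34, adjusted p = 0.109; -0.39 without replicate 3) did not pass the test. RIGI averaged 6.16 in normoxia and 5.65, 5.24 and 5.48 in hypoxia with control, HIF1A and HIF2A siRNA, and the hypoxic difference of -0.51 missed the threshold (adjusted p = 0.0612), though it passed when HIF1A siRNA replicate 3, which enters this comparison only through the shared spread, was left out (adjusted p = 0.0289). DHX58, a regulatory relative of RIGI, and OASL, a relative of the OAS enzymes, differed by at most 0.20 from hypoxic controls in either siRNA group, and OAS2, below the lower quartile of every array on average, by at most 0.07.

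Of the transcription factors, IRF1, an activator of interferon and interferon-stimulated genes, fell in hypoxia. It measured 7.78, 7.78 and 7.99 in normoxia, 7.20, 7.0 and 7.18 in hypoxia with control siRNA, 7.57, 7.09 and 6.84 with HIF1A siRNA, and 7.41, 7.11 and 7.26 with HIF2A siRNA. All hypoxic arrays were below all normoxic ones, and the HIF1A siRNA arrays were the most spread. The fall was 1.65-fold (-0.73, SE 0.16, adjusted p = 0.00968), and the call was narrowly lost without normoxia replicate 3 (adjusted p = 0.0506). IRF9, the DNA-binding part of the interferon-activated complex, measured 7.73, 7.69 and 7.53 in normoxia, 7.96, 7.88 and 8.01 in hypoxia with control siRNA, 7.59, 7.59 and 7.26 with HIF1A siRNA, and 7.95, 7.87 and 7.94 with HIF2A siRNA. Its hypoxic control and HIF2A siRNA arrays were all above the normoxic and HIF1A siRNA arrays. The hypoxic difference of 0.30 (SE 0.11, adjusted p = 0.0902) was not called over all arrays and was called higher after quantile normalization (0.42, adjusted p = 0.00531) and on the deposited scale without HIF1A siRNA replicate 3 (0.30, adjusted p = 0.0313). With HIF1A siRNA IRF9 fell 1.38-fold against control siRNA (-0.47, SE 0.11, adjusted p = 0.0158), a call lost after quantile normalization (-0.24, adjusted p = 0.0723), without HIF1A siRNA replicate 3 (-0.36, adjusted p = 0.053) and without hypoxia control replicate 1 or 3. IRF7, which amplifies interferon production, averaged 7.21, 7.39, 7.49 and 7.23 in normoxia and in hypoxia with control, HIF1A and HIF2A siRNA. In the main fit it had no call against hypoxic controls or normoxia. Its difference with HIF1A siRNA from normoxia, 0.28 (adjusted p = 0.0525), was 0.25 without HIF1A siRNA replicate 3 (adjusted p = 0.13). It was called higher after quantile normalization (0.60, adjusted p = 0.0106), with cyclic loess (0.53, adjusted p = 0.0105), with median scaling and with dim genes left out.

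The IFIT genes encode proteins that bind foreign RNA and block its translation, and all 4 were measured. With HIF1A siRNA 3 of the 4 fell against control siRNA and 0 rose (median -0.78, all genes -0.05), and 2 of the 4, IFIT3 and IFIT5, still did without HIF1A siRNA replicate 3. Of all genes, 13.7% were called lower in that comparison, and 5.42% without that array. IFIT5 measured 7.72, 7.53 and 7.49 in normoxia, 7.57, 7.26 and 7.32 in hypoxia with control siRNA, 6.13, 6.96 and 5.58 with HIF1A siRNA, and 7.34, 6.88 and 7.33 with HIF2A siRNA. Its HIF1A siRNA arrays lay below the control arrays and were spread over more than 1 unit. The fall was 2.23-fold (-1.16, SE 0.26, adjusted p = 0.014), and -0.84 (adjusted p = 0.0416) without HIF1A siRNA replicate 3. The call was lost without hypoxia control replicate 1.

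IFIT3, which binds and stabilizes IFIT1, is the member called in both hypoxia and with HIF1A siRNA, comparisons that share the hypoxic control arrays. It measured 9.05, 8.89 and 8.83 in normoxia, 8.16, 8.14 and 8.12 in hypoxia with control siRNA, 7.38, 7.80 and 7.26 with HIF1A siRNA, and 7.95, 7.84 and 7.95 with HIF2A siRNA. The 4 groups did not overlap, with normoxia at the top, then hypoxia with control siRNA, HIF2A siRNA and HIF1A siRNA. IFIT3 fell 1.71-fold in hypoxia (-0.78, SE 0.13, adjusted p = 0.00174) and a further 1.58-fold with HIF1A siRNA (-0.66, SE 0.13, adjusted p = 0.00647; -0.55, adjusted p = 0.024 without HIF1A siRNA replicate 3). With HIF2A siRNA the difference from control siRNA was -0.23 (95% interval -0.50 to 0.05), not called.

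IFIT2 measured 8.33, 7.99 and 7.75 in normoxia, 7.93, 7.75 and 7.80 in hypoxia with control siRNA, 6.94, 7.47 and 6.38 with HIF1A siRNA, and 7.15, 7.04 and 7.28 with HIF2A siRNA. Both siRNA groups lay below all control arrays, normoxic and hypoxic, and overlapped each other. The fall with HIF1A siRNA was 1.86-fold (-0.90, SE 0.22, adjusted p = 0.0204) and lost its call without HIF1A siRNA replicate 3 (-0.62, adjusted p = 0.0627) or without hypoxia control replicate 1 or 3. With HIF2A siRNA IFIT2 was -0.68 from control siRNA (SE 0.22, 95% interval -1.16 to -0.19), which did not pass after adjustment (adjusted p = 0.966), and the 2 siRNAs differed by -0.22 (adjusted p = 0.483). IFIT1 averaged 7.21, 7.02, 6.67 and 6.94 in normoxia and in hypoxia with control, HIF1A and HIF2A siRNA, with no call against normoxia in hypoxic controls or between the hypoxic groups.

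SAMD9 and SAMD9L, paired antiviral proteins that act on translation, were lower with HIF1A siRNA than in any other group. SAMD9 measured 7.73, 7.63 and 7.57 in normoxia, 8.11, 7.60 and 7.91 in hypoxia with control siRNA, 7.02, 6.84 and 5.99 with HIF1A siRNA, and 7.84, 7.60 and 8.13 with HIF2A siRNA. Each HIF1A siRNA array was below each of the other 9. SAMD9 fell 2.39-fold against control siRNA (-1.26, SE 0.23, adjusted p = 0.00501) and 2.37-fold against HIF2A siRNA (-1.24, SE 0.23, adjusted p = 0.00641). Without HIF1A siRNA replicate 3 these differences were -0.94 (adjusted p = 0.007) and -0.93 (adjusted p = 0.00896). HIF2A siRNA against control siRNA gave -0.01 (95% interval -0.52 to 0.49) and hypoxia against normoxia 0.23 (-0.28 to 0.73).

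SAMD9L measured 7.24, 7.09 and 6.96 in normoxia, 7.23, 6.67 and 7.14 in hypoxia with control siRNA, 6.40, 6.39 and 5.80 with HIF1A siRNA, and 7.22, 6.90 and 7.32 with HIF2A siRNA. It too had all 3 HIF1A siRNA arrays below the other 9. The fall was 1.76-fold against control siRNA (-0.82, SE 0.19, adjusted p = 0.0148), a call narrowly lost without HIF1A siRNA replicate 3 (-0.62, adjusted p = 0.0535) and lost without hypoxia control replicate 1 or 3. Against HIF2A siRNA the fall was 1.93-fold (-0.95, SE 0.19, adjusted p = 0.00895), and it kept its call without HIF1A siRNA replicate 3 (-0.75, adjusted p = 0.0288). TRIM22, a ubiquitin ligase that restricts viruses, measured 8.48, 8.19 and 8.43 in normoxia, 8.56, 8.07 and 8.19 in hypoxia with control siRNA, 7.47, 7.92 and 7.09 with HIF1A siRNA, and 8.0, 7.62 and 8.09 with HIF2A siRNA. Its HIF1A siRNA arrays lay below the control arrays and overlapped those of HIF2A siRNA. TRIM22 fell 1.72-fold with HIF1A siRNA (-0.78, SE 0.20, adjusted p = 0.0244), without a call when HIF1A siRNA replicate 3 (-0.58, adjusted p = 0.092) or 1, or hypoxia control replicate 1 or 3, was left out.

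The other measured effectors gave 0 calls between hypoxia and normoxia with control siRNA or among the hypoxic groups. ISG20, an RNA exonuclease, averaged 6.24, 6.52, 6.35 and 6.51 in normoxia and in hypoxia with control, HIF1A and HIF2A siRNA, and BST2, which tethers virions to the cell, averaged 5.01, 5.22, 5.0 and 5.0. MX1 and MX2, the dynamin-like antiviral GTPases, averaged 5.66, 5.49, 5.41 and 5.56, and 4.67, 4.76, 4.76 and 4.83. RSAD2, also called viperin, averaged 4.49 over all arrays, under the lower quartile of each. Over the 8 measured effectors the median log2 difference in hypoxia was 0.04.

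**Figure D3:**
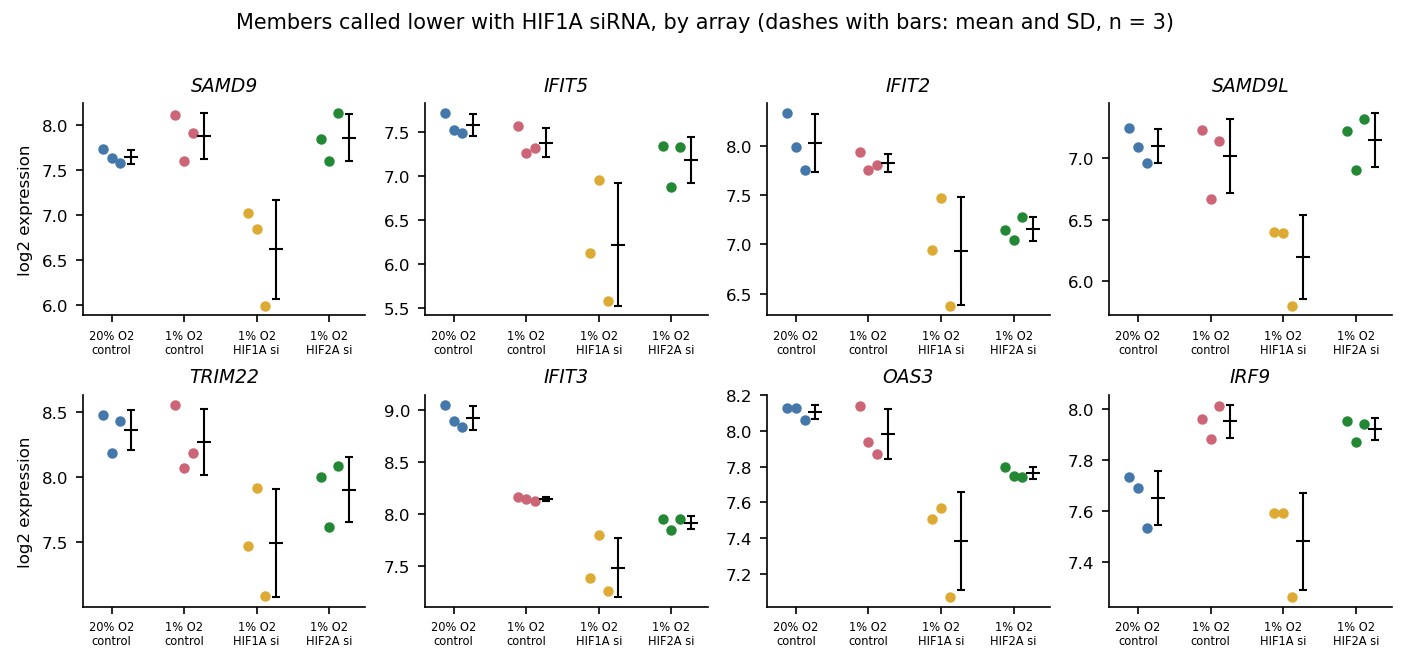
Log2 expression of the 8 genes called lower with HIF1A siRNA than with control siRNA in hypoxia, 1 point per array in each of the 4 groups, with the group mean and SD (n = 3) as a dash with bars; each panel has its own axis. The HIF1A siRNA points lie below all hypoxic control points in every panel, and below all 9 other arrays for OAS3, IFIT3, SAMD9 and SAMD9L.

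Among the 7 measured IFI and IFITM genes, IFI44 and IFI44L fell in hypoxia and 0 rose (median -0.37, all genes -0.03), where 10.9% of all genes were called lower. IFI44, a cytoplasmic protein strongly induced by interferon, measured 6.77, 6.12 and 6.28 in normoxia, 5.73, 5.09 and 5.44 in hypoxia with control siRNA, 4.81, 5.21 and 4.61 with HIF1A siRNA, and 5.91, 5.49 and 5.81 with HIF2A siRNA. Hypoxic and normoxic arrays were separate, and the HIF1A siRNA arrays were below those with HIF2A siRNA. The fall in hypoxia was 1.96-fold (-0.97, SE 0.21, adjusted p = 0.0086). IFI44 was also lower with HIF1A than with HIF2A siRNA (-0.86, SE 0.21, adjusted p = 0.022; -0.73, adjusted p = 0.0862 without HIF1A siRNA replicate 3). Its relative IFI44L measured 5.02, 4.90 and 5.07 in normoxia, 4.33, 4.28 and 4.34 in hypoxia with control siRNA, 4.59, 4.39 and 4.09 with HIF1A siRNA, and 4.69, 4.38 and 4.52 with HIF2A siRNA. It fell 1.60-fold (-0.68, SE 0.13, adjusted p = 0.00369), and all 9 of its hypoxic values were under 4.73.

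IFI16, which binds nuclear and cytosolic DNA, measured 10.11, 9.86 and 9.89 in normoxia, 9.78, 9.36 and 9.53 in hypoxia with control siRNA, 9.22, 9.26 and 8.67 with HIF1A siRNA, and 9.70, 9.44 and 10.04 with HIF2A siRNA. The HIF1A siRNA arrays were lowest, and IFI16 was called lower with HIF1A than with HIF2A siRNA (-0.68, SE 0.18, adjusted p = 0.0319; -0.49, adjusted p = 0.117 without HIF1A siRNA replicate 3). The difference from control siRNA, -0.51 (-0.32 without that array), was not called (adjusted p = 0.0805). IFITM1, which blocks viral entry at the membrane, averaged 5.54 in normoxia and 5.93 in hypoxia with control siRNA, a difference of 0.39 that was not called over all arrays (adjusted p = 0.0667) and was called higher after quantile normalization (adjusted p = 0.0388) and without HIF1A siRNA replicate 3 (adjusted p = 0.0257). IFI6, IFI27 and IFI35 gave 0 calls in hypoxia or between the siRNAs, with log2 differences in hypoxia of -0.04, 0.08 and -0.37.

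ISG15 is a ubiquitin-like protein that is joined to other proteins in the interferon response, and HERC5 is its main ligase. HERC5 measured 6.23, 6.03 and 6.05 in normoxia, 5.59, 5.29 and 5.61 in hypoxia with control siRNA, 5.16, 5.17 and 4.77 with HIF1A siRNA, and 5.30, 5.16 and 5.63 with HIF2A siRNA. All hypoxic arrays were below all normoxic ones, and the fall was 1.52-fold (-0.61, SE 0.15, adjusted p = 0.0173), not called without normoxia replicate 1 or 3 or hypoxia control replicate 2 (highest adjusted p = 0.0858). The further difference with HIF1A siRNA, -0.46, missed the threshold on the deposited scale (SE 0.15, adjusted p = 0.0554), passed it after quantile normalization (-0.45, adjusted p = 0.047) and was -0.33 without HIF1A siRNA replicate 3. HERC6, a relative of HERC5, measured 6.28, 5.96 and 6.13 in normoxia, 5.47, 4.99 and 5.45 in hypoxia with control siRNA, 5.34, 5.05 and 5.10 with HIF1A siRNA, and 5.43, 5.43 and 5.69 with HIF2A siRNA. It fell 1.77-fold in hypoxia (-0.82, SE 0.15, adjusted p = 0.00282). The hypoxic control arrays overlapped both siRNA groups, and the HIF1A siRNA arrays lay below those with HIF2A siRNA, without a call. ISG15 itself averaged 6.56 in normoxia and 6.76, 6.98 and 6.64 in hypoxia with control, HIF1A and HIF2A siRNA, with a hypoxic difference of 0.20 (adjusted p = 0.265) and a difference with HIF1A siRNA of 0.22 (adjusted p = 0.179), which quantile normalization called higher (0.40, adjusted p = 0.0335). That call was lost when HIF1A siRNA replicate 3 was also left out.

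PLSCR1, an interferon-induced phospholipid scramblase that also strengthens antiviral expression, had the largest fall of the set in hypoxia. It measured 7.89, 7.67 and 7.79 in normoxia, 6.90, 6.49 and 6.61 in hypoxia with control siRNA, 7.14, 7.01 and 6.75 with HIF1A siRNA, and 6.78, 6.64 and 6.89 with HIF2A siRNA. The 9 hypoxic arrays lay below the 3 normoxic ones. The fall was 2.17-fold (-1.12, SE 0.13, adjusted p = 0.000224). With HIF1A siRNA PLSCR1 was 0.30 above control siRNA, not called on the deposited scale (adjusted p = 0.142) and called higher after quantile normalization (0.47, adjusted p = 0.01), while without HIF1A siRNA replicate 3 the difference was 0.41 (adjusted p = 0.0934).

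PARP9 and PARP14 belong to the ADP-ribosyltransferase family and take part in the interferon response together. PARP9 measured 9.75, 9.38 and 9.59 in normoxia, 8.79, 8.65 and 8.72 in hypoxia with control siRNA, 8.81, 8.34 and 8.31 with HIF1A siRNA, and 9.07, 8.88 and 9.17 with HIF2A siRNA. It fell 1.80-fold in hypoxia (-0.85, SE 0.14, adjusted p = 0.00209), and its HIF2A siRNA arrays were all above the hypoxic control arrays (0.32, 95% interval 0.00 to 0.63, not called). PARP14 measured 7.86, 7.67 and 7.65 in normoxia, 7.55, 7.01 and 7.44 in hypoxia with control siRNA, 7.02, 7.0 and 6.73 with HIF1A siRNA, and 7.36, 7.33 and 7.58 with HIF2A siRNA. Its hypoxic difference of -0.39 was not called (adjusted p = 0.0908). Both genes were lower with HIF1A than with HIF2A siRNA (PARP9 -0.55, adjusted p = 0.0283, and PARP14 -0.50, adjusted p = 0.0391). Those calls were lost after quantile normalization and without HIF1A siRNA replicate 3, where the differences were -0.46 (adjusted p = 0.103) and -0.41 (adjusted p = 0.136). XAF1, an interferon-induced antagonist of the apoptosis inhibitor XIAP, averaged 8.26, 8.08, 7.72 and 7.86 in normoxia and in hypoxia with control, HIF1A and HIF2A siRNA, with 0 calls in the 6 comparisons.

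**Figure D4:**
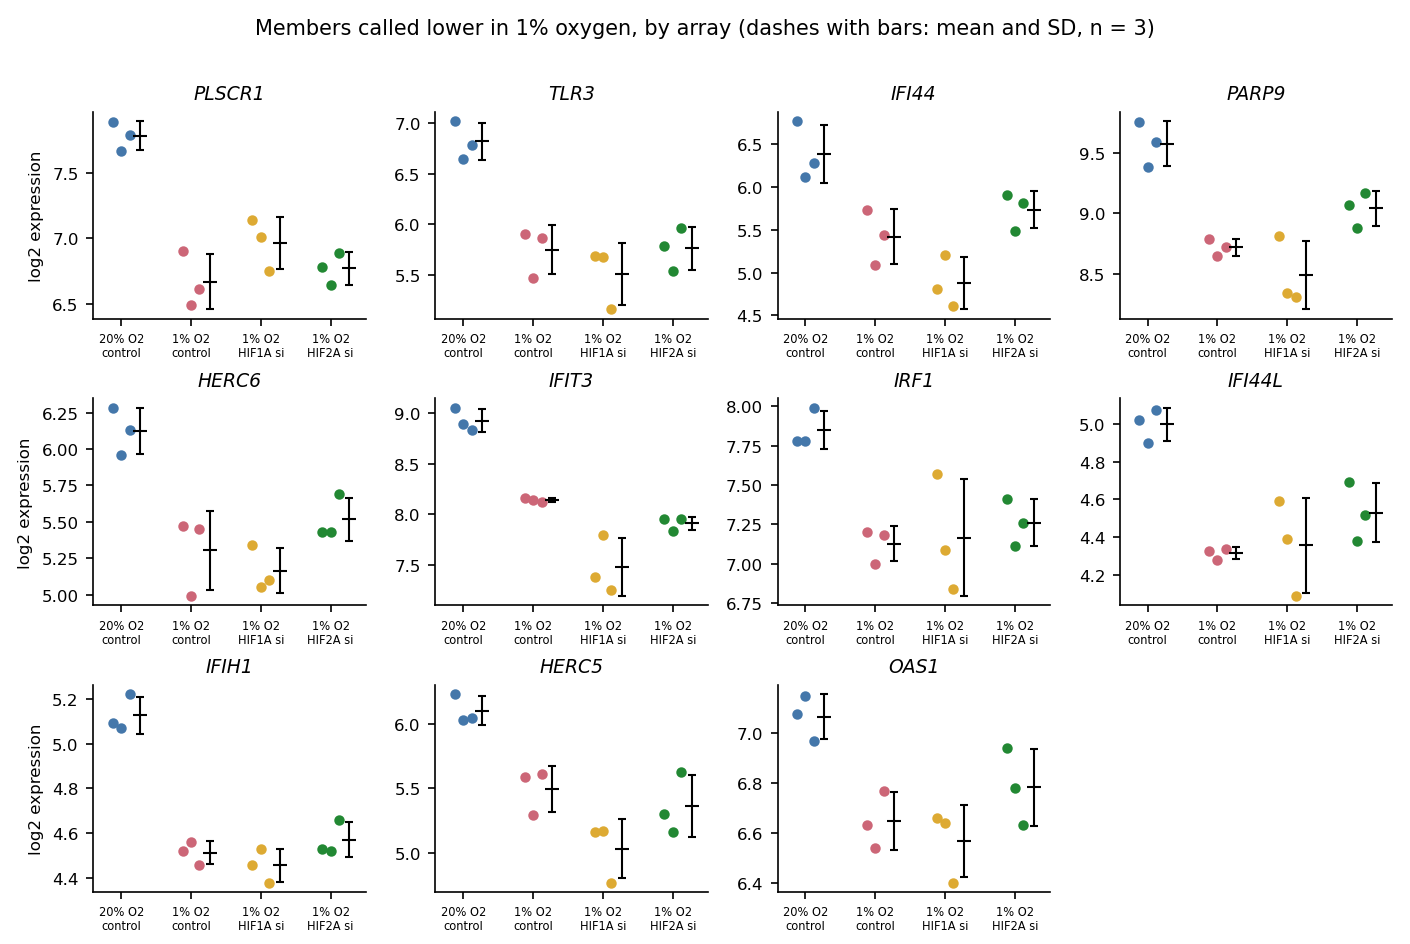
Log2 expression of the 11 genes called lower in hypoxia than in normoxia with control siRNA, 1 point per array in each of the 4 groups, with the group mean and SD (n = 3) as a dash with bars; each panel has its own axis. The 3 normoxic points lie above all 9 hypoxic points in each of the 11 panels, with the narrowest gap in OAS1 (6.97 against 6.94).

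Read as a set, 30 of the 39 genes (76.9%) were lower in hypoxia than in normoxia with control siRNA in their group means, against 56.2% of all genes. The median log2 difference was -0.18, against -0.03 over all genes. The count was 26 after quantile normalization and 27 with cyclic loess or with arrays centred on their medians. The 3 hypoxic arrays lay below the 3 normoxic arrays for 17 of the 39 genes (43.6%), against 26.3% of all genes. Without HIF1A siRNA replicate 3, which enters this comparison only through the shared spread, 12 were lower and 2 higher (RIGI beside the 11, and IRF9 and IFITM1), where 15.3% and 4.82% of all genes were called. With quantile normalization the counts were 11 lower and 2 higher (IRF9 and IFITM1), where 9.58% and 7.30% of all genes were called, and the medians were -0.08 and 0.03. A fall of at least 2-fold was called for 2 genes, PLSCR1 and TLR3, and for 1.13% of all genes.

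With HIF1A siRNA against control siRNA in hypoxia, 29 of the 39 genes (74.4%) had a negative difference, against 56.1% of all genes. The median was -0.22 against -0.05 over all genes. The count was 26 after quantile normalization, 30 with cyclic loess and 22 with arrays centred on their medians. On those scales the medians of all genes were 0.07, 0.03 and 0.07. For 13 genes (33.3%) all HIF1A siRNA arrays lay below all control arrays, against 19.8% of all genes. A fall of at least 2-fold was called for SAMD9 and IFIT5, 2 of the 39, and for 2.17% of all genes. Quantile normalization gave 8 lower and 2 higher (ISG15 and PLSCR1), where 9.87% and 7.65% of all genes were called. With HIF1A siRNA replicate 3 also left out, PLSCR1 alone was higher. Without HIF1A siRNA replicate 3, 4 of the 8 calls remained (OAS3, IFIT3, IFIT5 and SAMD9), the share of all genes called lower was 5.42% in place of 13.7%, and the medians were -0.11 and 0.00. Without hypoxia control replicate 1, 2 remained (IFIT3 and SAMD9), without hypoxia control replicate 3, 4 remained (OAS3, IFIT3, IFIT5 and SAMD9), and without HIF1A siRNA replicate 2 there were 13. When only these 2 groups entered the fit, 0 genes of the set were called. For these fits without a hypoxia control replicate or HIF1A siRNA replicate 2, and for the 2-group fit, the share of all genes is not given. Their counts do not show whether the set moved more than all genes.

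With HIF2A siRNA the medians were -0.01 for both the set and all genes, and 20 of the 39 differences (51.3%) were negative, against 52.1% of all genes. At an unadjusted limma p below 0.05 there were 1 lower gene (IFIT2) and 1 higher (PARP9) of the 39, where 1.92% and 2.11% of all genes were. All HIF2A siRNA arrays lay below all control arrays for 5 genes (12.8%: OAS3, OASL, IFIT2, IFIT3 and BST2), against 4.9% of all genes. The 95% intervals of the 39 differences reached between 0.19 and 0.74 to either side and are not adjusted over all genes. Changes smaller than a gene's interval could go uncalled, and so could larger ones. IFIT2 was at -0.68 with an interval of -1.16 to -0.19 and was not called (limma adjusted p = 0.966). The siRNAs were also set against each other: 10 of the 39 genes were lower with HIF1A than with HIF2A siRNA and 0 higher, where 12% and 1.71% of all genes were. These were DDX60, IRF9, IFIT3, IFIT5, IFI16, IFI44, SAMD9, SAMD9L, PARP9 and PARP14. IRF9 differed by -0.44 (SE 0.11, adjusted p = 0.0233), IFIT3 by -0.44 (SE 0.13, adjusted p = 0.0419) and IFIT5 by -0.96 (SE 0.26, adjusted p = 0.0333). Without HIF1A siRNA replicate 3, HIF2A siRNA replicate 1 or HIF2A siRNA replicate 3 the calls were 2 in each case, SAMD9 and SAMD9L. Without the first of these arrays 4.31% of all genes were called lower. For the HIF2A siRNA replicates that share is not given. IFIT3 was also not called with the replicate block or array weights. After quantile normalization IRF9 (-0.21, adjusted p = 0.108), IFIT3 (-0.21, adjusted p = 0.182), PARP9 and PARP14 lost their calls, so that 6 were lower, and 3 were higher (IRF7, ISG15 and PLSCR1), where 9.10% and 8.54% of all genes were. With HIF1A siRNA replicate 3 also left out, 0 were higher.

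**Figure D5:**
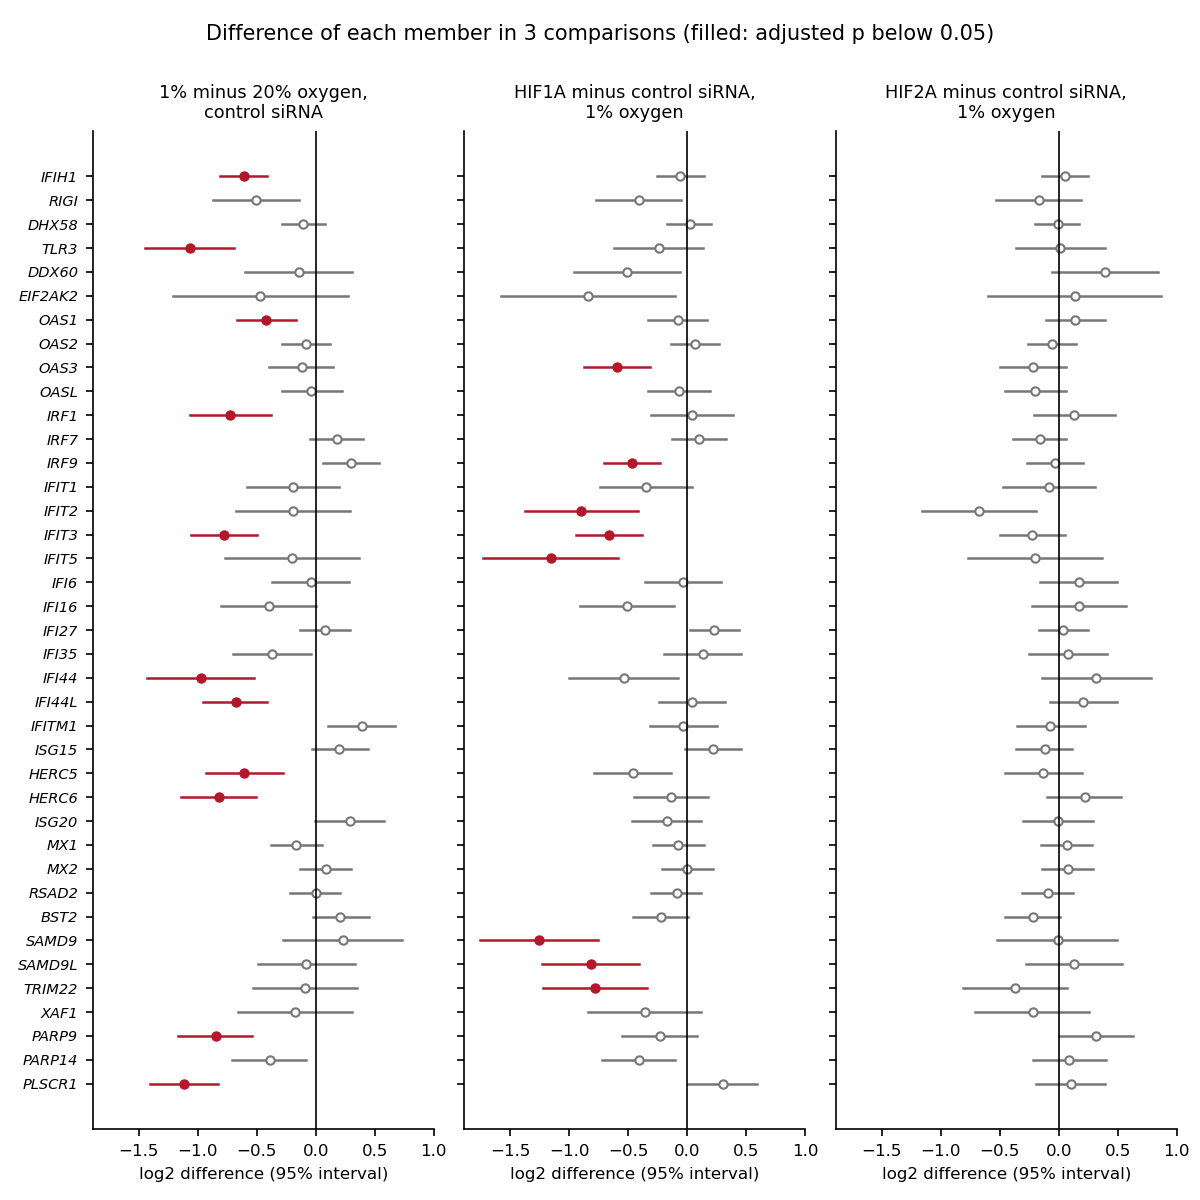
Log2 difference of each of the 39 genes with its 95% interval in 3 comparisons: 1% minus 20% oxygen with control siRNA, HIF1A minus control siRNA and HIF2A minus control siRNA, both in 1% oxygen; filled red points have an adjusted p below 0.05. There are 11 filled points in the first panel, 8 in the second and 0 in the third, all to the left of 0.

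Hypoxia with either siRNA was also compared with normoxia, as the study's design did. With HIF1A siRNA 23 of the 39 genes were lower than in normoxia and 3 higher (IFI27, IFITM1 and ISG15), where 32.6% and 5.77% of all genes were, with a median of -0.66 against -0.12. The largest falls were those of IFI44 (-1.52, SE 0.21, adjusted p = 0.00105), IFIT3 (-1.44, SE 0.13, adjusted p = 0.00014), IFIT5 (-1.36), TLR3 and EIF2AK2 (both -1.31). A fall of at least 2-fold was called for 9 genes, against 4.81% of all genes. Without HIF1A siRNA replicate 3 the falls were IFI44 -1.38, IFIT3 -1.33, TLR3 -1.14 and IFIT5 -1.03. EIF2AK2 (-0.86), IFIT2 (-0.82), HERC5 (-0.94) and SAMD9 (-0.72), also among the 9, were then under 2-fold. ISG15 rose by 0.42 (SE 0.11, adjusted p = 0.0101), IFITM1 by 0.35 (adjusted p = 0.0492) and IFI27 by 0.31 (adjusted p = 0.025). The IFITM1 call was lost without any 1 of these arrays other than HIF1A siRNA replicate 3 and with cyclic loess scaling, and the IFI27 call without any 1 normoxia replicate or HIF1A siRNA replicate 3 and with array weights. Without HIF1A siRNA replicate 3, 21 were lower and 2 higher, where 21.2% and 3.22% of all genes were. With HIF2A siRNA 11 genes were lower than in normoxia and 0 higher, where 8.31% and 3.27% of all genes were, with a median of -0.28 against -0.05. These were IFIH1, RIGI, TLR3, IRF1, IFIT2, IFIT3, IFI44L, HERC5, HERC6, PARP9 and PLSCR1, with IFIT3 at -1.0 (SE 0.13, adjusted p = 0.000416), RIGI at -0.67 (adjusted p = 0.0203) and IFIT2 at -0.87 (adjusted p = 0.0243). There were 5 without normoxia replicate 1 or HIF2A siRNA replicate 2, 7 without normoxia replicate 2 or 3, and 13 without HIF1A siRNA replicate 3, where 12.8% of all genes were lower. For the other arrays left out the share of all genes is not given. These comparisons share the normoxic arrays with each other and with that of hypoxia.

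The rest of the pathway was read from lists of genes outside the set. Interferon ligands gave 0 calls of 5 measured in hypoxia or between siRNAs, and IFNB1, the first interferon made after RNA sensing, was at 2.06 to 2.96 on all arrays, below the lower quartile of each. Of 8 receptors and JAK kinases, 1 fell in hypoxia, where 10.9% of all genes were called lower. It was IFNGR1, the ligand-binding chain of the interferon gamma receptor (-0.76, SE 0.21, adjusted p = 0.0278). That call was lost without normoxia replicate 1 or 3 or hypoxia control replicate 2 or 3. With HIF1A siRNA 2 of the 8 fell against control siRNA, where 13.7% of all genes were called lower. They were IFNAR1, a chain of the type I interferon receptor, and JAK2. IFNAR1 was at 9.42, 8.85 and 8.84 on the hypoxic control arrays, 7.67, 8.68 and 7.13 with HIF1A siRNA, and 8.91, 8.5 and 9.0 with HIF2A siRNA. Its HIF1A siRNA arrays 1 and 3 were far below the rest and array 2 just below the control arrays (-1.21, SE 0.31, adjusted p = 0.0225), and the call was lost without HIF1A siRNA replicate 3 (-0.86, adjusted p = 0.079) or 1 or hypoxia control replicate 1. JAK2 differed by -1.07 (SE 0.22, adjusted p = 0.00934) and by -0.89 without HIF1A siRNA replicate 3 (adjusted p = 0.0388), and was not called without hypoxia control replicate 1 (adjusted p = 0.0519).

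Of 13 adaptors and kinases that carry the sensors' signal, 0 were called in hypoxia, where 10.9% of all genes were called lower. With HIF1A siRNA 3 of the 13 fell, where 13.7% of all genes were called lower. They were TBK1, the kinase that activates IRF3 (-0.73, adjusted p = 0.0266), the ubiquitin ligase TRAF6 (-0.57, adjusted p = 0.0447) and STING1, the adaptor of DNA sensing (-0.39, adjusted p = 0.0474). After quantile normalization TRAF6 (-0.35, adjusted p = 0.0566) and STING1 (-0.14, adjusted p = 0.35) were not called. Without HIF1A siRNA replicate 3, 0 of them were called (adjusted p from 0.0991 to 0.167), and none was without hypoxia control replicate 1. Of 6 negative regulators, the phosphatase PTPN2 fell in hypoxia (-0.41, adjusted p = 0.0285) and SOCS3, which inhibits JAK kinases, with HIF1A siRNA (-0.46, adjusted p = 0.0256). Of all genes, 10.9% and 13.7% were called lower in these comparisons. The SOCS3 call was lost without HIF1A siRNA replicate 3 or hypoxia control replicate 1, and the PTPN2 call without normoxia replicate 1 or 3 or hypoxia control replicate 2 or 3. Of 24 further interferon-induced genes, 3 fell and 0 rose in hypoxia, where 10.9% of all genes fell, and 6 fell without HIF1A siRNA replicate 3, where 15.3% did. The 3 were RTP4 (-0.60, adjusted p = 0.0136), PARP12 (-0.57, adjusted p = 0.00467) and SP110 (-0.56, adjusted p = 0.0241). PARP12 kept its call without each of the 6 arrays, RTP4 lost it in 3 and SP110 in 4 of those cases. With HIF1A siRNA, where 13.7% of all genes fell, 4 of the 24 did so, with the largest differences in TRIM21, an intracellular antibody receptor (-0.68, adjusted p = 0.00878), TNFSF10, the death ligand TRAIL (-0.55, adjusted p = 0.027), and SP100, a nuclear body protein (-0.49, adjusted p = 0.0287), and 1 rose, the chemokine CXCL11 (0.68, adjusted p = 0.0457). Of these 5, TRIM21 alone kept its call without HIF1A siRNA replicate 3 (-0.54, adjusted p = 0.0314), and CXCL11, with no value above 3.66 on any array, lost its call without each of the 6 arrays in turn.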

How the data were processed

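The deposited values are log2 expression values made by the authors, with a single value for each probe set and array. The scale was inferred from the values (1.14 to 14.3), and the submitters' processing notes name Partek and hg18. How background was corrected and values summarized and normalized is not given in the sources used here. Of 22011 probe sets, the platform annotation pairs 14432 with 1 symbol, 2408 with several and 5171 with none. For 197 genes with several probe sets, none in the set described, the one with the highest mean over the 12 arrays was used. In limma 3.58.1 (R 4.3.3, data.table version 1.17.8) a mean was fitted per group over all 12 arrays, with eBayes and Benjamini-Hochberg adjustment over 14232 genes within each of 6 comparisons. The number of arrays limits the precision. Arrays of 1 group correlated at 0.983 to 0.994. The fit was run on simulated data with independent normal noise of the same spread in every group. They held no array that stood apart, so that run bears on the working of the fit only. Plots used matplotlib 3.10.9 and pandas 2.3.3.

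The genes and lists were chosen with earlier results of these data known. Values on every array are given for genes of the set called in hypoxia, with either siRNA or between the siRNAs. Pathway genes outside the set are named where called in hypoxia or with either siRNA against control siRNA. At most 3 are named per list and comparison in order of size, beside those that complete a count. Pathway calls between the siRNAs, such as NMI and APOL6 (lower with HIF1A siRNA) and TAP2 (higher), are not described. Alternatives were quantile, cyclic loess and median scaling, a filter on dim genes, probe set means, another variance model, array weights, 2-group fits, a replicate block and leaving out each array.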

Additional observations from a re-analysis of the deposited data

How the results depend on the processing

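Of the calls for single genes of the set in hypoxia, those of TLR3, IFIT3, IFI44, HERC6, PARP9, PLSCR1, IFIH1 and IFI44L passed in every setting tried, except that the filter on dim genes left IFIH1 and IFI44L untested; no difference of a called gene changed sign in any setting. Counts of called genes of the set moved as follows; the arrays left out were those of the groups compared and, chosen after seeing the data, HIF1A siRNA replicate 3 elsewhere. In hypoxia against normoxia, array weights gave 19 (3 higher, 16 lower) in place of 11, and leaving out 1 array 9 to 14, the 14 without HIF1A siRNA replicate 3. For HIF1A against control siRNA, the fit of the 2 groups alone gave 0 in place of 8, quantile normalization without HIF1A siRNA replicate 3, chosen after seeing the data, gave 4 (1 higher, 3 lower), and leaving out 1 array 2 to 13. For HIF1A against HIF2A siRNA the same settings gave 0, 3 and 2 to 14 in place of 10. For HIF1A siRNA against normoxia, quantile normalization without HIF1A siRNA replicate 3 gave 18 and leaving out 1 array 22 to 26, in place of 26. For HIF2A siRNA against normoxia, array weights gave 17 (2 higher, 15 lower) and leaving out 1 array 5 to 13, in place of 11, the 13 without HIF1A siRNA replicate 3. HIF2A against control siRNA gave 0 in every setting. The fit of 2 groups alone gained 4 calls and lost 0 in hypoxia against normoxia. It gained 3 and lost 0 for HIF2A siRNA against normoxia, and gained 0 and lost 4 for HIF1A siRNA against normoxia. That fit has fewer arrays and takes the spread from the 2 groups compared only. The cause of these changes and of the others was not tested. These counts stand without the share of all genes called in the same setting, and that share moved too. For HIF1A against control siRNA, 13.7% of all genes were called lower over all arrays and 5.42% without HIF1A siRNA replicate 3. The counts therefore do not show a gain or loss of calls particular to the set. With the replicate number as a block the counts were 12, 8, 0, 9, 26 and 11 in the order hypoxia against normoxia, HIF1A against control, HIF2A against control, HIF1A against HIF2A, and HIF1A and HIF2A siRNA against normoxia; same-numbered arrays of different groups correlated at -0.49 to 0.60 in their deviations from group means, 6 of 18 pairs were over 0.1, and 4 of 12 arrays correlated best with their own number, so the numbers were not taken to pair the samples. The deposited values hold no detection measure, so dim genes have no bound.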

Other observations

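Some genes of MHC class I antigen presentation, outside the set described above, fell in hypoxia. Of 10 measured genes of class I and its loading, 3 fell in hypoxia with control siRNA and 0 rose (median -0.18; all genes, -0.03; 10.9% of all genes called lower). TAP2, a subunit of the transporter that carries peptides into the endoplasmic reticulum, measured 8.11, 8.09 and 8.13 in normoxia, 7.03, 7.01 and 7.30 in hypoxia with control siRNA, 7.59, 7.46 and 7.47 with HIF1A siRNA, and 7.31, 7.03 and 7.10 with HIF2A siRNA. Its normoxic arrays were far above all hypoxic ones, and its HIF1A siRNA arrays were above the other hypoxic ones. It fell 2.00-fold in hypoxia (log2 difference -1.0, SE 0.11, limma adjusted p = 1e-04), and with HIF1A siRNA it was 0.40 above control siRNA (SE 0.11, adjusted p = 0.0287), a call lost without HIF1A siRNA replicate 3 (0.42, adjusted p = 0.0612) or 1 or hypoxia control replicate 1 or 2. TAP1, its partner, fell 1.97-fold in hypoxia (-0.98, SE 0.13, adjusted p = 0.000516), from 9.26, 9.19 and 9.31 to 8.2, 8.17 and 8.43. Both TAP calls held without each of the 6 arrays of that comparison. PSMB8, a subunit of the immunoproteasome, fell by 0.70 (adjusted p = 0.0408), a call lost without any of the normoxia replicates or without hypoxia control replicate 2 or 3.

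Within the HIF1A siRNA group, replicate 3 was the lowest array for 32 of the 39 genes (82.1%), against 63.2% of all genes. The HIF1A transcript itself measured 8.2, 9.06 and 7.74 on replicates 1, 2 and 3. The same order, with replicate 3 lowest and replicate 2 highest, was seen for 16 of the 39 genes (41%), among them IFIT2, IFIT3, IFIT5, OAS3 and TRIM22, and for 27% of all genes. SAMD9 and SAMD9L were highest on replicate 1. Whether the depth of the knockdown has a part in these values was not tested.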
